A study of Mus musculus with 6 samples.

Results

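The genes described here encode the small leucine-rich proteoglycans and other matrix proteins of tendon, with 2 transcription factors of tendon cells. They are Dcn, Bgn, Lum, Fmod, Kera, Tnmd, Thbs4, Comp, Scx and Mkx. They were chosen by symbol, and all 10 were found among the 24054 genes of the count table. RNA came from the gastrocnemius, a calf muscle that ends in the Achilles tendon, of male C57BL/6 mice in 6 libraries, 3 for each of 2 genotypes. In MI4KO, both Irf4 alleles were floxed and deleted by Myl1-cre, which is selective for skeletal muscle. In MI4OE, Myl1-cre switched on an IRF4 transgene carried at Rosa26 behind a stop cassette (Rosa26-LSL-IRF4). Both groups therefore carry Myl1-cre, and the recombination is directed to muscle fibers, not to the fibroblasts and tendon cells of the same tissue. Per the labels all 6 animals ate a high fat diet, but chow is the diet named in the study, which leaves the diet uncertain. The age of these mice was not given in the sources used here, and replicate numbers pair no libraries across genotypes. With no wild-type or flox gastrocnemius analysed here, every contrast sets an overexpressor against a knockout.

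Small leucine-rich proteoglycans are secreted proteins that bind collagen fibrils and set how wide the fibrils grow and how they are spaced. Decorin and biglycan carry chondroitin or dermatan sulfate chains, while lumican, fibromodulin and keratocan belong to a class that can carry keratan sulfate. Tenomodulin is a membrane protein used as a marker of mature tendon cells. Thrombospondin 4 and cartilage oligomeric matrix protein are pentameric matrix proteins found where muscle meets tendon and in tendon itself. Scleraxis and Mohawk are transcription factors of tendon cells. In skeletal muscle these genes are known from connective tissue, tendon and the junction between them, not from the contractile apparatus. In a bulk sample, more cells of a type and more RNA per cell cannot be told apart.

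Total expected counts ran from 18828605 to 29239585 per library, and a floor of 3 counts was worth 0.101 to 0.148 CPM (read counts scaled to a common, TMM-adjusted library size). Irf4 was at 0.104 ± 0.127 CPM (SD, n = 3) in MI4KO and at 257 ± 114 CPM (SD, n = 3) in MI4OE, as the labels say. One library stood apart. In MI4OE replicate 1 the 10 most abundant genes took 25.5% of counts, against 32.8% to 36.8% in the other libraries. Markers of slow fibers summed to 7407 CPM there, against 55.4 to 720 CPM in the others. For the tested genes of the set and most counts of gene lists, values without this library are given as well.

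Several of these genes lie beside other small leucine-rich proteoglycan genes. In the RefSeq annotation of GRCm38.p6, Dcn, Lum, Kera and Epyc follow one another in that order. Optc and Prelp are the next genes on 1 side of Fmod. RefSeq promoter sequences of the same build were at hand for 5 of the 10 genes, namely Fmod, Kera, Thbs4, Bgn and Tnmd. Kera, as described further on, moved at least as closely with Fmod and Thbs4 as Tnmd did, but its sequence is not printed. Shown are the sequences of Fmod, Thbs4 and Tnmd, which moved closely together from library to library, and of Bgn, which was less like them. Each is the 250 bases before the annotated start, read 5′ to 3′ on the strand of the gene, with capitals marking any E-box (CANNTG), the short element bound by basic helix-loop-helix factors such as scleraxis. They lie at chr1:134037004-134037253 on the plus strand for Fmod, chr13:92794819-92795068 on the minus strand for Thbs4, chrX:133850758-133851007 on the plus strand for Tnmd and chrX:73483351-73483600 on the plus strand for Bgn.
Fmod: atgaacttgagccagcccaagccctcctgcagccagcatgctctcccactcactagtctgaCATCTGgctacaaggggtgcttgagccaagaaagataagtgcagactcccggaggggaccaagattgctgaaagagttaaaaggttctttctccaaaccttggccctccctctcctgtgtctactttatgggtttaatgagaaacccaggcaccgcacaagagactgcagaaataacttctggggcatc
Thbs4: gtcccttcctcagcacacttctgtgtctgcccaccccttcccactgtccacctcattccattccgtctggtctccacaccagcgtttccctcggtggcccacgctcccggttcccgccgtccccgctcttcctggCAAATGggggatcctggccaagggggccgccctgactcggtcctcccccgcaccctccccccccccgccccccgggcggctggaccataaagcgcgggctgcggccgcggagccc
Tnmd: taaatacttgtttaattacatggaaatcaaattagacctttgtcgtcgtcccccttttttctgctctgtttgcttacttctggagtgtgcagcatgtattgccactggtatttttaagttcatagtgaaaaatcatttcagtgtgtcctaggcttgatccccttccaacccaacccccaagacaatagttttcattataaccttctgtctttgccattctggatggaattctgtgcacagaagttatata
Bgn: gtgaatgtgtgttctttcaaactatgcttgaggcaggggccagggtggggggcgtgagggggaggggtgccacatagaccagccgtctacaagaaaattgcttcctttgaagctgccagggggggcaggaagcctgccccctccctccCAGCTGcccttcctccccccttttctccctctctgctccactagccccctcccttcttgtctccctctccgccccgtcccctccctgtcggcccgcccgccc

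The windows of Fmod, Thbs4 and Bgn each held 1 E-box, which began 189, 115 and 102 bases before the start, and that of Tnmd held 0. An E-box is a common run of letters: 66.2% of 32851 RefSeq promoters of this length held at least 1, and both strands were searched for each motif. The letters AANNGAAA, a core of the element bound by interferon regulatory factors, were in 21.3% of all promoters and, among the 5 windows, in that of Kera alone, 229 bases before the start. The letters TATAAA were in 12.4% of all promoters and in 0 of the 5 windows. The windows ranged from 38.4% G and C in Tnmd to 70.8% in Thbs4. A match is only a run of letters, and no match says only that the letters are not in this window.

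Levels between genes were compared in TPM, the abundance that RSEM adjusts for transcript length. Dcn was the most abundant, with a mean of 146 TPM over the 6 libraries and a range of 88.6 to 216 TPM. It made up 55.9% to 71.5% of the summed TPM of the 10 genes in each library. Bgn followed with a mean of 35.3 TPM, then Thbs4 with 20.4, Scx with 11.7, Fmod with 8.07 and Lum with 4.63 TPM. Comp at 0.950, Tnmd at 0.812, Kera at 0.320 and Mkx at 0.0617 TPM were scarce. In this order, the lowest library of Dcn was above the highest of Bgn, and the lowest of Lum was above the highest of Comp. For every other pair of neighbors the ranges overlapped, and Bgn exceeded Thbs4 in 4 of 6 libraries, Scx exceeded Fmod in 4 and Comp exceeded Tnmd in 4. The proteoglycans Dcn, Bgn, Lum, Fmod and Kera together made up 77.5% to 89.4% of the summed TPM. The defining tendon marker, Tnmd, was thus scarce in this tissue, with 6 to 37 counts per library.

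The comparison of MI4OE with MI4KO asked which of these genes differ in level between the 2 genotypes. Dcn, Lum and Fmod were higher in MI4OE by 1.66- to 2.54-fold and met the criterion the study used, a change of 1.5-fold with an unadjusted p under 0.05. None of the 10 genes passed the test adjusted over all genes. Of the 12660 genes that passed the filter on low counts, 3 (0.0237%) reached an adjusted p under 0.05 in edgeR's quasi-likelihood test, and 9 of the 10 genes were among those tested. The number of these 9 with an adjusted p under 0.05 was 0, and it was also 0 with edgeR's exact test and with DESeq2. Those 2 tests called 108 and 111 of all tested genes. An unadjusted p under 0.05 was reached by 3 of the 9. By the study's criterion 3 of the 9 were higher in MI4OE and 0 were lower, beside 4.36% of all tested genes higher and 2.28% lower. The study, in its own fit, counted more genes as lower than as higher in MI4OE, the opposite balance. The groups did not overlap in 2 of the 9, both higher in MI4OE, beside 7.38% of all tested genes higher and 5.48% lower. The median log2 fold change of the 9 was 0.81, beside -4.3e-05 over all tested genes, and 8 of the 9 had a positive sign. Mkx did not pass the filter, so the counts and the median describe the 9 others and not the whole set. The labels do not say more of replicates than that they are separate samples, so p-values measure only the spread between these samples.

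Dcn encodes decorin, the main proteoglycan of tendon. Its level was 128, 84.5 and 133 CPM in MI4KO replicates 1, 2 and 3, and 224, 160 and 223 CPM in MI4OE replicates 1, 2 and 3. Every MI4OE library was above every MI4KO library, and replicate 2 was the lowest of its group in both genotypes. The means were 115 ± 26.6 and 202 ± 36.8 CPM (SD, n = 3 each), a 1.76-fold difference. The log2 fold change was 0.81 ± 0.24 (SE), with a 95% interval of 0.25 to 1.37, an unadjusted edgeR p of 0.0104 and an adjusted p of 0.521. A two-sided exact permutation test over the libraries gave p = 0.1, the smallest that 3 against 3 allow. Dcn alone of the set met the study's criterion whichever library was left out, with log2 fold changes of 0.62 to 0.96. RSEM divided its reads between transcripts of 1794 and 1886 bases, and the longer one took 25.7% to 51.9% of the Dcn abundance in MI4KO and 33.3% to 54.2% in MI4OE. Those shares overlapped between the groups and were lowest in replicate 1 of each.

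Bgn encodes biglycan, the closest relative of decorin. It stood at 28.2, 30.2 and 62.9 CPM in the MI4KO libraries and at 111, 39.1 and 37.6 CPM in the MI4OE libraries. Single high libraries, MI4KO replicate 3 and MI4OE replicate 1, set the spread, and the groups overlapped. The means were 40.4 ± 19.5 and 62.4 ± 41.7 CPM (SD, n = 3 each). On the log2 scale the difference was 0.63 ± 0.49 (SE), with an interval of -0.52 to 1.77 and an adjusted edgeR p of 0.842. Without MI4OE replicate 1 it was -0.08. The ratio of Dcn to Bgn counts was 4.52, 2.80 and 2.12 in MI4KO and 2.03, 4.08 and 5.92 in MI4OE. The balance between both proteoglycans thus ranged as widely within MI4OE as over all 6 libraries.

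Lum, Fmod and Kera encode lumican, fibromodulin and keratocan of the second class. Lum was at 4.75, 3.69 and 4.50 CPM in the MI4KO libraries and 8.41, 4.86 and 8.30 CPM in the MI4OE libraries. The groups did not overlap, although the lowest MI4OE library exceeded the highest MI4KO library by little. The means were 4.31 ± 0.557 and 7.19 ± 2.02 CPM (SD, n = 3 each), a 1.66-fold difference. The log2 fold change of Lum was 0.73 ± 0.26 (SE), with an interval of 0.13 to 1.34, an unadjusted edgeR p of 0.0239 and an adjusted p of 0.572. The two-sided exact permutation p was 0.1. The ratio of Dcn to Lum counts stayed between 22.9 and 32.9 in all 6 libraries, the narrowest of the 6 ratios between members that were computed.

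Fmod, whose product takes part in collagen fibril maturation, was at 12.1, 3.41 and 8.73 CPM in MI4KO. In MI4OE it was at 30.3, 9.58 and 21.8 CPM. Replicate 2 was again the lowest of each group, and MI4OE replicate 2 fell within the range of MI4KO, so the groups overlapped. With means of 8.09 ± 4.39 and 20.6 ± 10.4 CPM (SD, n = 3 each), its log2 fold change was 1.34, the largest of the 3 genes that met the study's criterion, with a standard error of 0.53 and an interval of 0.11 to 2.57. The unadjusted edgeR p was 0.0361 and the adjusted p was 0.623. Fmod and Lum did not meet the criterion without MI4KO replicate 2 or 3 or without MI4OE replicate 1 or 3, where the unadjusted edgeR p ran from 0.0522 to 0.113. Kera, best known from the cornea, had 19, 0 and 4 counts in MI4KO and 16, 1 and 15 counts in MI4OE. No difference was detected, with a log2 fold change of 0.68, an interval of -2.18 to 3.54 and an adjusted edgeR p of 0.929. The neighbors Dcn, Lum and Kera were each lowest in replicate 2 of both groups. Kera was close to absent there, and Dcn stood at 84.5 and 160 CPM.

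**Figure D1:**
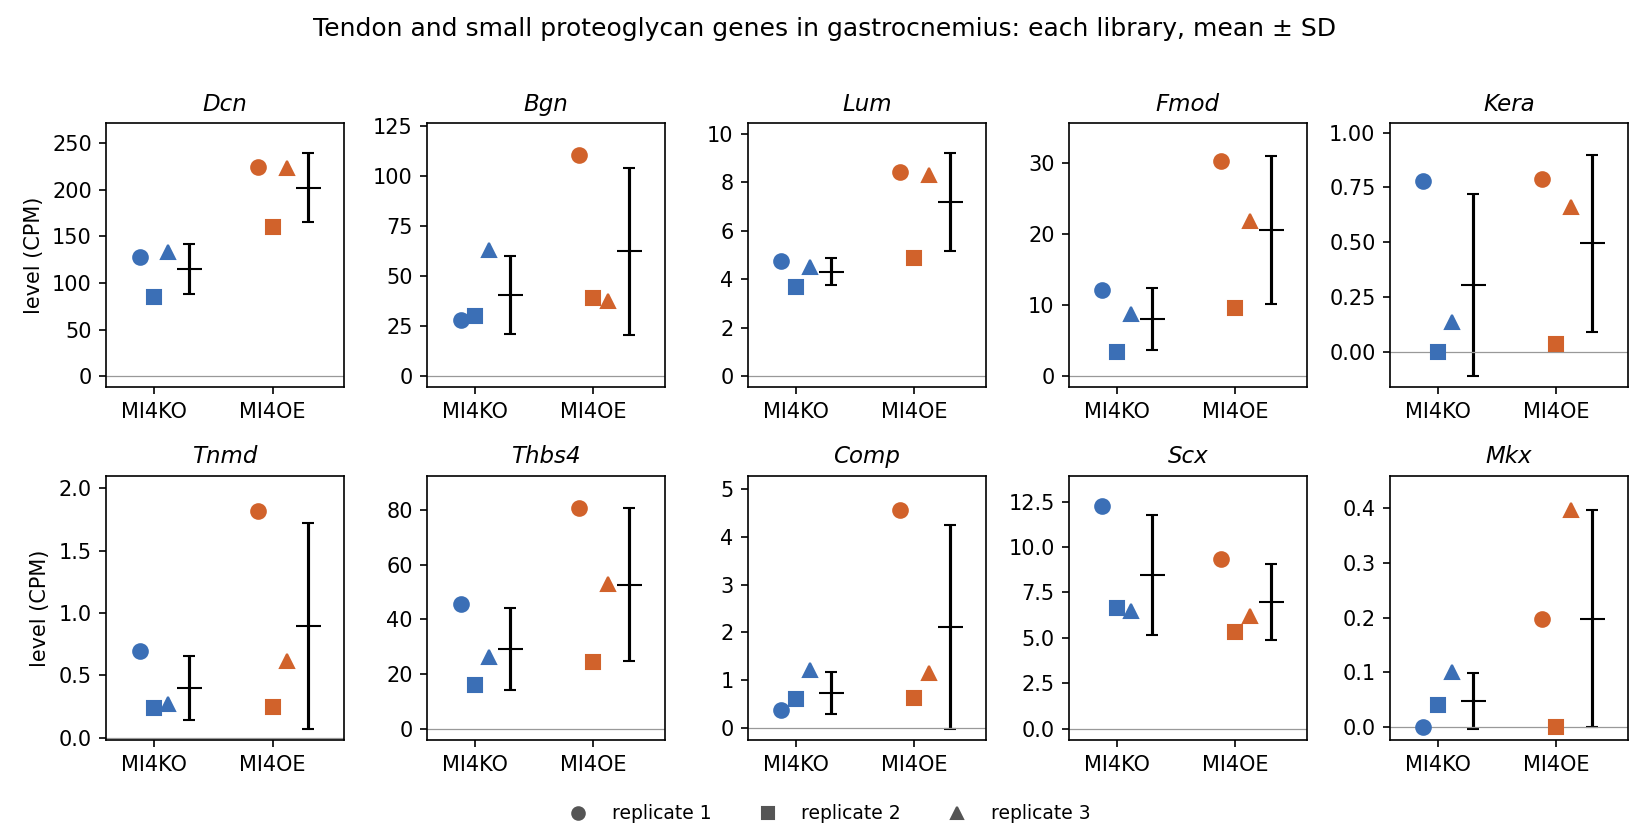
Level of each of the 10 genes in CPM (vertical axis, from 0, with its own scale in each panel) in the MI4KO and MI4OE libraries; points are libraries, their shapes the replicates, and the bars beside them mean ± SD of 3 libraries. Dcn and Lum are the tested genes whose groups do not overlap, and MI4OE replicate 2 lies below MI4OE replicate 1 in every panel.

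Thbs4 and Comp encode closely related pentameric proteins of tendon and of its junction with muscle. Thbs4 was at 45.6, 16.1 and 26.3 CPM in the MI4KO libraries and 80.7, 24.6 and 52.8 CPM in the MI4OE libraries. The groups overlapped, with replicate 1 the highest and replicate 2 the lowest in both. The means were 29.3 ± 14.97 and 52.7 ± 28.1 CPM (SD, n = 3 each). Its log2 fold change was 0.85, near that of Dcn, but with a standard error of 0.49, an interval of -0.29 to 1.99 and an adjusted edgeR p of 0.759. Thbs4 met the study's criterion without MI4KO replicate 1 and without MI4OE replicate 2, with log2 fold changes of 1.31 and 1.19. Without MI4KO replicate 2 and without MI4OE replicate 1 its log2 fold change was 0.53 and 0.39, with unadjusted edgeR p values of 0.322 and 0.426. The ratio of Thbs4 to Fmod counts was 3.76, 4.72 and 3.02 in MI4KO and 2.66, 2.57 and 2.42 in MI4OE, and so did not overlap between the groups. The two-sided exact permutation p for this ratio was 0.1, and the pair was 1 of 6 examined with the levels already known.

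Comp was scarce, at 9, 15 and 36 counts in MI4KO and 93, 18 and 26 counts in MI4OE. Only MI4OE replicate 1 exceeded the MI4KO range. Comp had a log2 fold change of 1.51 ± 0.79 (SE), with an interval of -0.32 to 3.34 and an adjusted edgeR p of 0.726. Without MI4OE replicate 1 it was 0.27, and with DESeq2 or without MI4OE replicate 2 Comp met the study's criterion. Tnmd had 17, 6 and 8 counts in MI4KO and 37, 7 and 14 counts in MI4OE, with replicate 1 the highest of each group. Tnmd differed by a log2 fold change of 1.13 ± 0.78 (SE), with an interval of -0.69 to 2.96 and an adjusted edgeR p of 0.810. Without MI4OE replicate 1 it was 0.09. The intervals of Comp and Tnmd span both no difference and differences of several fold.

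Among the 9 tested genes Scx alone had a negative sign. It was at 12.3, 6.66 and 6.48 CPM in the MI4KO libraries and 9.35, 5.35 and 6.23 CPM in the MI4OE libraries. Replicate 1 was the highest of each group, and the groups overlapped. With means of 8.47 ± 3.30 and 6.97 ± 2.102 CPM (SD, n = 3 each), the log2 fold change was -0.28 ± 0.32 (SE), with an interval of -1.04 to 0.47 and an adjusted edgeR p of 0.880, and without MI4KO replicate 1 it was 0.08. Scx lies within the span of Bop1, a ribosome assembly gene on the opposite strand, with 0 of its 1035 exonic bases shared in the GENCODE M21 annotation. The strand setting of the counting was not stated. Bop1 was at 29.9 to 35.2 CPM in MI4KO and 21.7 to 32.6 CPM in MI4OE, was lowest in MI4OE replicate 1, and had a log2 fold change of -0.25 (adjusted edgeR p of 0.819). Mkx had 0, 1 and 3 counts in MI4KO and 4, 0 and 9 counts in MI4OE, at or below the floor of 3 counts in 4 of 6 libraries. Fitted without the filter, its log2 fold change was 1.86 ± 1.33 (SE), with an adjusted edgeR p of 0.826.

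**Figure D2:**
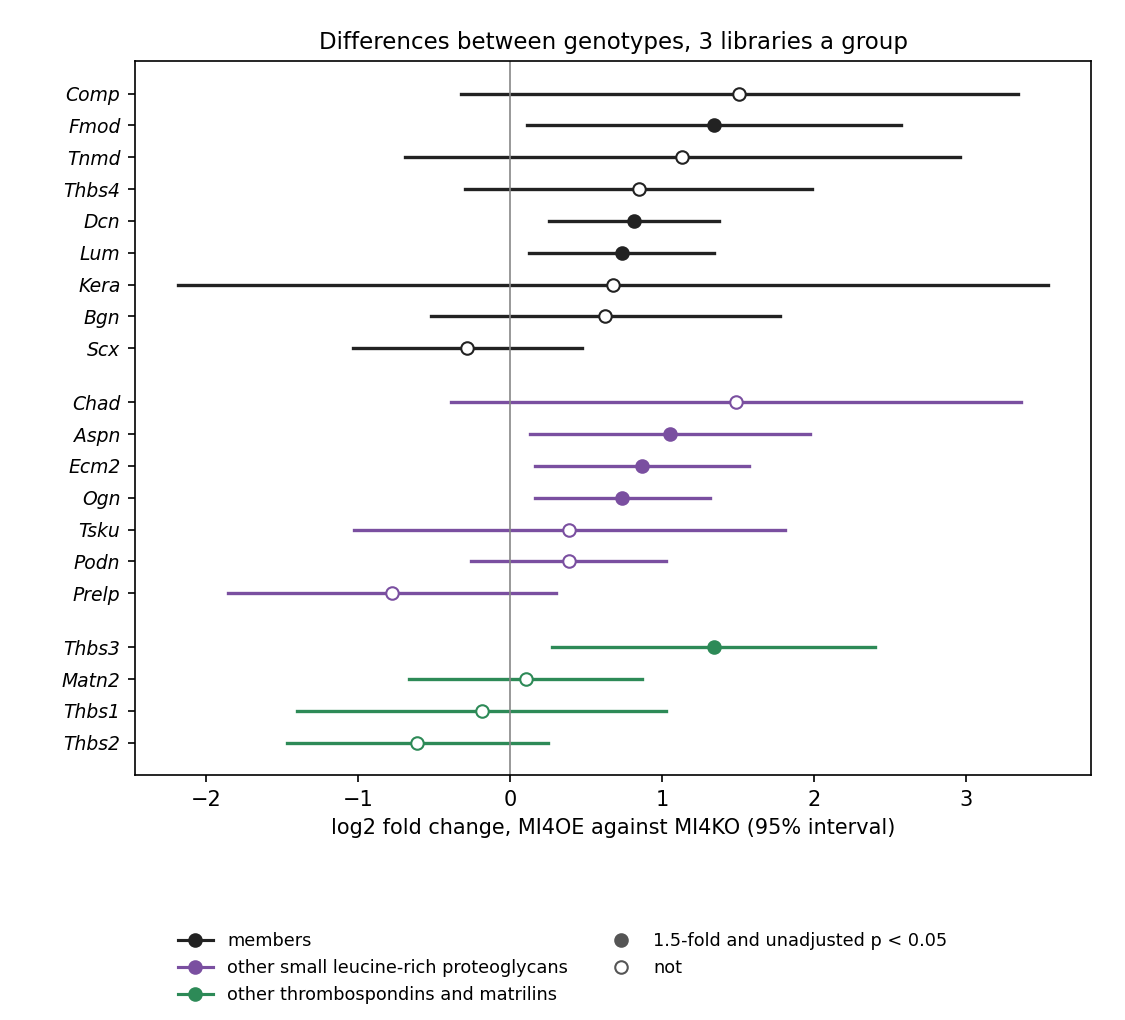
Log2 fold change of MI4OE against MI4KO (horizontal axis) with its 95% interval for the 9 tested members, 7 other small leucine-rich proteoglycans and 4 other thrombospondins and matrilins; filled points met 1.5-fold with an unadjusted p under 0.05. The filled members are Fmod, Dcn and Lum, and the 7 filled genes in all lie to the right of 0.

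The libraries of a genotype also differed from one another. With each gene set to the mean of its group on the log2 CPM scale, MI4KO replicate 2 and MI4OE replicate 2 were below their group mean for all 9 tested genes, and MI4OE replicate 1 was above it for all 9. In MI4KO replicate 2 the deviation was -1.06 for Fmod, -0.74 for Thbs4, -0.52 for Tnmd and -0.42 for Dcn. In MI4OE replicate 2 it was -0.95, -0.94, -1.31 and -0.32 for the same 4 genes. MI4KO replicate 1 was above its group mean by 0.76 for both Fmod and Thbs4 and by 0.89 for Tnmd, but below it by 0.42 for Bgn and 0.75 for Comp. In MI4KO replicate 3, by contrast, Bgn and Comp were above the mean by 0.74 and 0.86 while Tnmd was below it by 0.37. In summed level, replicate 2 was also the lowest of both groups for the fibril collagen, fibroblast, macrophage and adipocyte lists described below. It was the highest of both groups for the nerve sheath list.

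As a description of likeness over these 6 libraries, which share depth and scaling between genes, Pearson's r of the deviations was 0.97 between Fmod and Thbs4, 0.94 between Tnmd and Thbs4 and 0.91 between Tnmd and Scx. It was 0.95 between Dcn and Fmod. Bgn and Comp were alike at 0.94, but r between Bgn and the 7 others was 0.21 to 0.48. All 36 pairs had a positive r, with a median of 0.78. Kera, at few counts, had r of 0.97 with both Thbs4 and Fmod, and Lum had 0.82 to 0.90 with Tnmd, Thbs4, Fmod, Dcn and Kera. Scx was less like Fmod, at 0.76, and Dcn, at 0.52. Comp had r of 0.23 to 0.58 with the 7 genes other than Bgn, highest with Lum and Tnmd, which overlaps the lowest values among those 7.

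**Figure D3:**
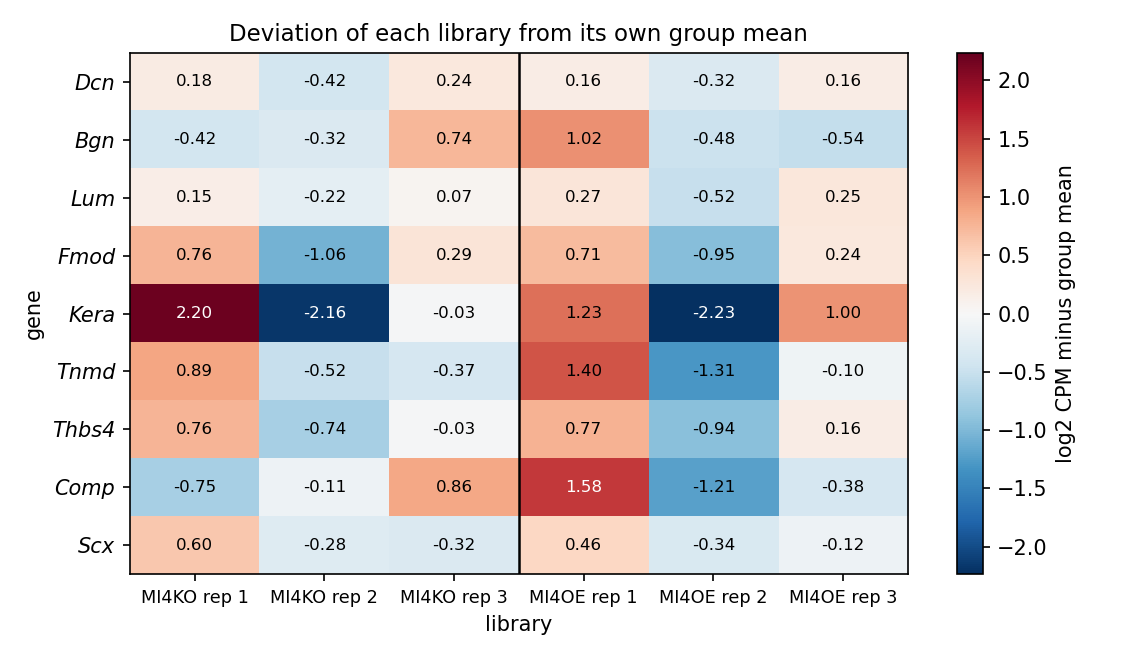
Deviation of each library from the mean of its own group, in log2 CPM, for the 9 tested genes (rows) in the 6 libraries (columns); red is above and blue below the group mean. The replicate 2 columns are blue for all 9 genes in both groups, and Bgn and Comp are opposite to Fmod, Tnmd and Thbs4 in MI4KO replicate 1.

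Among 11290 tested genes outside the set with a mean of at least 1 CPM, those most like Tnmd by the same measure were 2810025M15Rik, Wdr18, Gpatch11, Comtd1 and Idh3a, each with r of 0.998 or 0.999 over the 6 libraries. Those most like Dcn were Tk1, 3110009E18Rik, Osr1, Mtrf1l and Zfp524, with r of 0.998 to 0.999. With 6 libraries and that many genes such values are a ranking only. None of these 10 genes had an adjusted edgeR p under 0.05, and their smallest adjusted p was 0.626.

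Other genes of the small leucine-rich proteoglycan family were examined next. Of 12 such genes 7 were tested, 3 met the study's criterion with higher values in MI4OE and 0 with lower values, and their median log2 fold change was 0.74. They were Ogn (osteoglycin), Ecm2 and Aspn (asporin), which lie together in the genome with Omd. Ogn was at 3.68, 5.23 and 5.14 CPM in the MI4KO libraries and 5.90, 7.94 and 9.63 CPM in the MI4OE libraries, without overlap. Ogn differed by a log2 fold change of 0.74 ± 0.25 (SE), with an unadjusted edgeR p of 0.0184 and an adjusted p of 0.546. Ecm2 did not overlap between the groups either, with a log2 fold change of 0.87 (adjusted edgeR p of 0.561). Aspn, a binder of collagen and of TGF-beta, had 1.05 and 0.595, with MI4OE replicate 2 inside the MI4KO range. Without MI4KO replicate 1 the number higher by the criterion in this family was 0 and 1 gene was lower. The number higher was 1 without MI4OE replicate 1 or 3. Counts in this and the later lists stand beside 4.36% of all tested genes higher by the criterion and 2.28% lower. With 1 library left out those shares ran from 2.32% to 6.94% and from 1.809% to 3.285%.

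Prelp, which anchors basement membranes to collagen and is the next gene to Fmod, had the opposite sign. It was at 13.8, 22.8 and 57.03 CPM in the MI4KO libraries and 19.5, 18.3 and 17.0 CPM in the MI4OE libraries. MI4KO replicate 3 was far above the other libraries, which overlapped. The log2 fold change was -0.78, with an interval of -1.86 to 0.30 and an adjusted edgeR p of 0.767. Chad (chondroadherin) had 14, 9 and 27 counts in MI4KO and 64, 7 and 43 in MI4OE, a log2 fold change of 1.49 (adjusted edgeR p of 0.730). Podn and Tsku had log2 fold changes of 0.39 each, with adjusted edgeR p values of 0.817 and 0.914. Epyc, the neighbor of Kera, had 0 counts in all 6 libraries, and Omd, Optc, Podnl1 and Nyx had at most 8 counts in any library.

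Of 7 other thrombospondins and matrilins 4 were tested, with a median log2 fold change of -0.04. Thbs3, which belongs with Thbs4 and Comp to the pentameric subgroup, was at 1.15, 1.19 and 2.02 CPM in the MI4KO libraries and 5.95, 1.96 and 3.22 CPM in the MI4OE libraries. Its log2 fold change was 1.34 ± 0.46 (SE), with an unadjusted edgeR p of 0.0202 and an adjusted p of 0.550, and it met the study's criterion. MI4OE replicate 2 lay within the MI4KO range, and Thbs3 did not meet the criterion without MI4KO replicate 1 or 2 or without MI4OE replicate 1. The trimeric Thbs1 and Thbs2 had log2 fold changes of -0.19 and -0.61, with adjusted edgeR p values of 0.961 and 0.772, and Matn2 had 0.10 and 0.966. Matn1 and Matn3 had 0 counts in every library, and Matn4 had at most 7. The difference between the pentameric and trimeric genes was not tested.

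The collagens and matrix proteins that surround the proteoglycans were also examined. Of 25 such genes, all tested, 17 met the study's criterion with higher values in MI4OE and 0 with lower values, 22 had a positive sign, and the median log2 fold change was 0.77. With each library left out in turn, 11 to 17 met it as higher and 0 to 2 as lower. An adjusted p under 0.05 was reached by 0 of them with the quasi-likelihood test. Fn1, the fibronectin gene, was at 13.6, 14.0 and 18.2 CPM in the MI4KO libraries and 56.3, 30.2 and 37.9 CPM in the MI4OE libraries. Fn1 differed by a log2 fold change of 1.44 ± 0.26 (SE), and its adjusted p was 0.422 with the quasi-likelihood test, 0.00084 with edgeR's exact test and 0.00034 with DESeq2. The collagen VI genes Col6a1 and Col6a2 had log2 fold changes of 0.97 and 0.90, and Eln, which encodes elastin, had 1.09, each with an adjusted edgeR p of 0.433. These 3 genes, too, passed the threshold with the other tests. Their adjusted p values were 0.018 to 0.031 by edgeR's exact test and 0.0077 to 0.0217 by DESeq2. Of all 12660 tested genes 108 passed with the exact test and 111 with DESeq2. Among them were the markers Lamb1, Myh11 and Pdgfrb, higher in MI4OE, and Plin1, lower. Col3a1 and Pcolce, which enhances procollagen processing and whose transcript was the most abundant of the list, had log2 fold changes of 0.68 and 0.72. Col3a1 did not overlap between the groups and Pcolce did. Summed over the list, the level was 331 to 458 CPM in MI4KO and 504 to 701 CPM in MI4OE. The 10 genes of the tendon set summed to 145 to 244 CPM in MI4KO and 244 to 471 CPM in MI4OE, with MI4KO replicate 3 at 243.7 and MI4OE replicate 2 at 244.1 CPM.

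Regulators of tendon cells showed no common direction. Of 25 transcription factors and growth signals 23 were tested, with a median log2 fold change of -0.13. The criterion was met by 3 as higher and 2 as lower, beside 4.36% and 2.28% of all tested genes. Without MI4OE replicate 1 there were 1 higher and 1 lower, with a median of 0.02. The counts were 2 and 1 without MI4KO replicate 1 or 2. Ltbp4, which holds latent TGF-beta in the matrix, was at 30.9, 39.5 and 51.7 CPM in the MI4KO libraries and 150, 64.5 and 82.2 CPM in the MI4OE libraries. Its log2 fold change was 1.28 ± 0.34 (SE), with an adjusted edgeR p of 0.503. The adjusted p of Ltbp4 was 0.069 with edgeR's exact test and 0.0434 with DESeq2. Tgfb1 had 0.93 and 0.556. Gdf11 was lower, with a log2 fold change of -1.01 (adjusted edgeR p of 0.521), and Smad3, a mediator of TGF-beta signals, had -0.63 and 0.570. Mstn, which encodes myostatin, had a log2 fold change of -0.58 and did not meet the criterion.

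The enzymes that build the sulfated sugar chains of proteoglycans were examined because Dcn and Bgn carry such chains. Of 29 genes 25 were tested, with a median log2 fold change of 0.13. The criterion was met by 0 as higher and 1 as lower, beside 4.36% and 2.28% of all tested genes. The number lower was 0 when any of the MI4OE libraries was left out. The gene was Chst1, a keratan sulfate sulfotransferase, at 1.15, 1.98 and 5.58 CPM in the MI4KO libraries and 1.03, 1.19 and 1.06 CPM in the MI4OE libraries. For Chst1 the log2 fold change was -1.41 with an unadjusted edgeR p of 0.04 and an adjusted p of 0.626, and its MI4KO value rested largely on replicate 3. Chst11, B4galt4 and Chst14 had the next smallest p values, with log2 fold changes of -0.89, 0.47 and 0.50 and adjusted edgeR p values of 0.731 to 0.800. B3gat3 and Fam20b, which act in the linker that joins chain to protein, had the highest levels and log2 fold changes of -0.15 and -0.18.

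Genes of the myotendinous junction on the muscle side were all 18 tested, with a median log2 fold change of 0.05. Of them 2 met the criterion as higher and 0 as lower, beside 4.36% and 2.28% of all tested genes. The number higher was 0 without MI4KO replicate 1 or 2 or without MI4OE replicate 1, and 1 without MI4OE replicate 3. Nes, which encodes nestin, was at 32.3, 42.4 and 58.1 CPM in the MI4KO libraries and 107, 53.6 and 70.5 CPM in the MI4OE libraries, with a log2 fold change of 0.80 (adjusted edgeR p of 0.612). Ankrd2, a stretch-responsive gene of slow fibers, was at 6.14, 5.35 and 32.0 CPM in the MI4KO libraries and 525, 2.90 and 53.5 CPM in the MI4OE libraries. It was highest in MI4OE replicate 1, and its log2 fold change was 3.74 ± 1.59 (SE), with an adjusted edgeR p of 0.654. The laminin genes Lamb2 and Lama2 had log2 fold changes of 0.43 and 0.32. Xirp2 and Itgb1bp2, the most abundant of the list, had -0.17 and 0.19.

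Markers of other cell types in the tissue differed in direction. Of 12 fibroblast and fibro-adipogenic progenitor markers, 11 had a positive sign and 5 met the criterion as higher, or 3 to 7 with each library left out in turn, with a median log2 fold change of 0.77. Their summed level was 533 to 1051 CPM in MI4KO and 867 to 1100 CPM in MI4OE. Most of it was Gsn, at 335.1 to 773.2 CPM in MI4KO and 581.5 to 762.9 CPM in MI4OE. Pdgfra, the defining receptor of these cells, was at 4.99, 4.12 and 4.33 CPM in the MI4KO libraries and 6.45, 7.17 and 8.92 CPM in the MI4OE libraries, with a log2 fold change of 0.74 (adjusted edgeR p of 0.507). Endothelial markers were higher in 10 of 10 by sign and 5 by the criterion, or 1 without MI4KO replicate 1 and 8 without MI4OE replicate 2, and summed to 130 to 208 CPM in MI4KO and 231 to 419 CPM in MI4OE. Of 10 smooth muscle and pericyte markers 7 met the criterion as higher. The number was 6 without MI4OE replicate 1 and 5 to 8 with each library left out in turn. Among the 7 were Myh11, Pdgfrb and Acta2 with log2 fold changes of 1.30, 1.07 and 1.13. The sum over the 10 markers, 6062 to 7576 CPM in MI4KO and 5704 to 6187 CPM in MI4OE, was set by Des, which muscle fibers also express.

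Of 10 nerve sheath markers 9 had a positive sign and 1 met the criterion as higher, beside 4.36% of all tested genes. It was met by 9 without MI4KO replicate 2 and by 1 without MI4OE replicate 1. The markers had sums of 41.4 to 149 CPM in MI4KO and 97.3 to 265 CPM in MI4OE. These sums were highest in replicate 2 of each group, where the tendon genes were low. Adipocyte markers went the other way, with 10 of 10 negative by sign, 8 lower by the criterion, a median log2 fold change of -3.56, and sums of 2139 to 3794 CPM in MI4KO and 887 to 1636 CPM in MI4OE. Without MI4KO replicate 3, where Adipoq was at 81.4 CPM against 9.58 and 17.7 in the other MI4KO libraries, the median was -1.87 and 7 were lower by the criterion, and without MI4OE replicate 1 they were -3.16 and 9. The sums were mostly Car3, which muscle fibers also express, at 1601 to 2589 CPM in MI4KO and 551 to 1224 CPM in MI4OE. Of 8 macrophage markers 0 met the criterion, also without MI4OE replicate 1, but 1 was higher by it without MI4KO replicate 1 and 1 was lower without MI4OE replicate 3. Their sums overlapped at 47.0 to 84.1 and 33.5 to 73.5 CPM. None of the markers in these lists was at 0 in all libraries.

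Of 10 cartilage markers 4 were tested, 0 met the criterion as higher and 2 as lower, Col11a2 with a log2 fold change of -0.82 and Col9a1 with -2.16. The number lower was 0 without MI4KO replicate 3 and 1 when any of the MI4OE libraries was left out, and Col9a1 was at 1.72, 2.93 and 6.75 CPM in the MI4KO libraries. Their sum was 14.3 to 22.7 CPM in MI4KO and 9.23 to 15 CPM in MI4OE. Of 11 slow-fiber markers 8 met the criterion as higher, or 0 without MI4OE replicate 1 or without MI4KO replicate 1. They summed to 55.4 to 153 CPM in MI4KO and to 7407, 62.4 and 720 CPM in MI4OE replicates 1, 2 and 3. The order of the MI4OE libraries was that of Fmod and Thbs4, whereas in MI4KO, at 55.4, 153 and 130 CPM in replicates 1, 2 and 3, it was the reverse of theirs. Of 13 fast-fiber markers 0 met the criterion, also without MI4OE replicate 1, but 2 were higher by it without MI4KO replicate 3 and 1 without MI4OE replicate 2. They had a median log2 fold change of -0.33, and MI4OE replicate 1 was the lowest of the 6 libraries in their sum. The part of these cell types and fiber types in the values of the tendon genes was not tested.

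**Figure D4:**
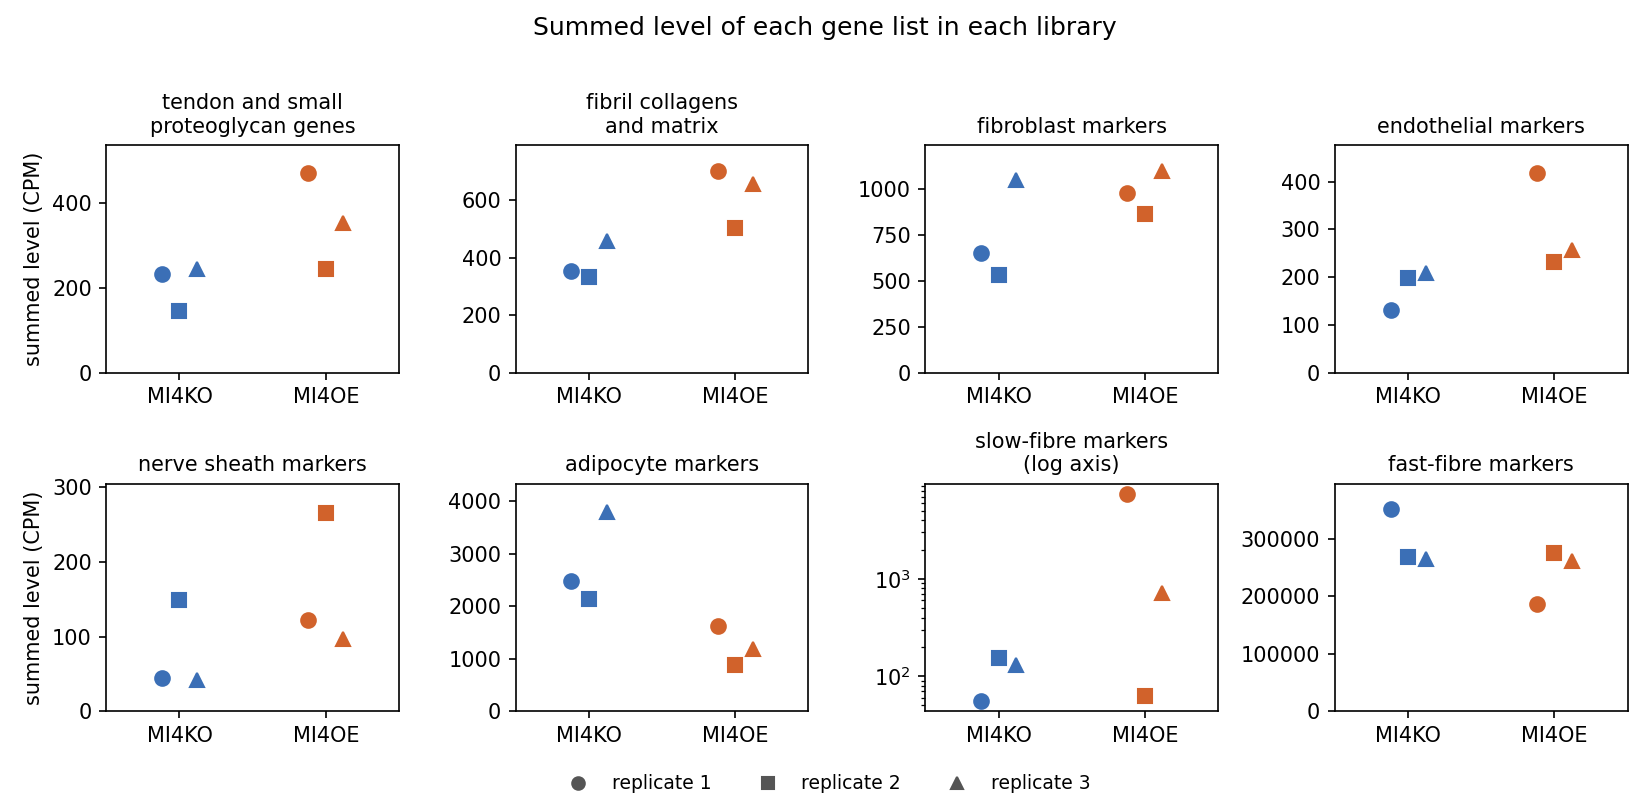
Summed level in CPM (vertical axis, linear from 0 except the slow-fiber panel, which is logarithmic) of 8 gene lists in each library; colors are the genotypes and shapes the replicates. The tendon set, the fibril collagens and the endothelial markers do not overlap between groups. The tendon set is separated only by 243.7 CPM in MI4KO replicate 3 against 244.1 CPM in MI4OE replicate 2. The fibroblast markers, mostly Gsn, overlap, and MI4OE replicate 1 is set apart in the slow-fiber panel at 7407 CPM.

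Without MI4OE replicate 1 the median log2 fold change of the 9 tendon genes was 0.27 and Dcn alone met the study's criterion, beside 2.36% of all tested genes higher in that fit. In the same fit the median of the fibril collagen and matrix list was 0.70 with 11 genes higher by the criterion, that of the fibroblast markers was 0.55 with 4, and that of the endothelial markers was 0.38 with 2. Without MI4OE replicate 2 the median of the tendon genes was 1.19, and Lum, Dcn, Fmod, Thbs4 and Comp met the criterion, beside 6.94% of all tested genes higher. Without MI4OE replicate 1 the log2 fold change was 0.73 for Dcn, 0.60 for Lum, 0.95 for Fmod, 0.16 for Kera and -0.55 for Scx. Dcn had 0.96 without MI4OE replicate 2.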

How the data were processed

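Gastrocnemius RNA-seq was analysed in 3 MI4KO and 3 MI4OE libraries, grouped by the genotype label. Per the labels and the methods of the study, the authors made stranded libraries enriched for mRNA, read 50 bases from 1 end, mapped them to UCSC transcripts with Bowtie2 2.1.0 and quantified them with RSEM 1.2.15 (base calls with bcl2fastq 2.17). The genome build was not stated. Expected counts, as deposited, are gene-level estimates by RSEM without normalization, which share a read among the transcripts it matches, so that near-identical genes are uncertain. The TPM values deposited by the authors are adjusted for transcript length and library total. The deposited percent values per transcript are each transcript's share of its gene's abundance. The authors' tables of fold changes, p-values and scaled signals were not used.

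These were rounded to integers, and genes were kept with filterByExpr (minimum count of 10, minimum total of 15), which left 12660 of 24054 genes. MI4OE was compared with MI4KO by the quasi-likelihood test of edgeR 4.0.16 in R 4.3.3 with TMM factors and no covariate, with Benjamini-Hochberg adjustment over all genes tested. CPM used TMM-scaled library sizes. Standard errors and 95% intervals came from the same fit. Alternatives were DESeq2 1.42.0, the exact test of edgeR, limma 3.58.1 on log2(TPM + 1) and log2(TPM + 0.1), bias-adjusted deviances, scaling by RLE or by totals or by TMM with the 100 most abundant genes set aside, a CPM filter (mean of 1 or more) or none, and fits that left out each library. The tests were first tested on simulated data. The floor of 3 counts covers counting error only.

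The genes and lists were chosen with earlier results of these data known. Named genes are the 10 genes, Irf4, the other small leucine-rich proteoglycans, thrombospondins and matrilins, up to 4 genes with the smallest p and 2 with the highest TPM of each other pathway list, markers needed beside a result, and the 5 genes most like Tnmd and Dcn. Bop1 was named for its overlap with Scx. One gene that this rule names is not reported here.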

Additional observations from a re-analysis of the deposited data

How the results depend on the processing

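The number of tendon and small proteoglycan genes with an adjusted p under 0.05 was 0 under all 16 alternatives. The number that met 1.5-fold with an unadjusted p under 0.05 was 3 in the reported fit, 4 with DESeq2, and ran from 1 to 5 when each library was left out in turn. The share of all tested genes that met it as higher was 4.36%, 4.87% with DESeq2 and 2.32% to 6.94% without each library, lowest without MI4KO replicate 1, where 4 of the set met it, and highest without MI4OE replicate 2, where 5 did. Their median log2 fold change ran from 0.27 to 1.19 over the same fits. Of 142 single-gene values under the alternatives, 140 kept their direction and stayed on the same side of the adjusted threshold, and 2 changed sign. They were Bgn, at -0.076 without MI4OE replicate 1 and up to 1.08 without other libraries, and Scx, at 0.076 without MI4KO replicate 1 and down to -0.55 without other libraries, and the causes were not tested. Over the alternatives the adjusted p ran from 0.12 to 0.919 for Dcn, from 0.291 to 0.958 for Lum and from 0.26 to 0.993 for Fmod. A mean CPM of at least 1 left 7 of the 10 genes, without Kera, Tnmd and Mkx. Scaling by total counts moved the median of all genes to 0.09. The effect of depth was not tested for Kera, Tnmd, Comp and Mkx, which had under 100 counts in every library. No paired analysis was possible because the labels give no replicate numbers that link libraries of the 2 genotypes.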
